A study of Mus musculus with 5 samples.

Results

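The matrix metalloproteases (Mmp genes), the membrane-bound disintegrin metalloproteases (Adam), their secreted relatives with thrombospondin repeats (Adamts) and the tissue inhibitors of metalloproteases (Timp) were examined in cultured mouse astrocytes. Members were chosen by a rule on gene symbols, with earlier results of these data known. The rule took 48 of the 18783 genes in the authors' deposited table: 13 Mmp, 4 Timp, 15 Adam and 16 Adamts genes. Of 71 annotated mouse genes that the rule takes, 23 were not analysed here, among them Mmp7, Mmp8, Mmp9 and Mmp10. The cultures came from C57BL/6 pups at P0-P1 and were harvested at DIV 12 (days in vitro). The Aβ+DFMO group (1 library) had received 1 µM Aβ (amyloid-β peptide) with 50 µM DFMO, the Aβ group (2 libraries) 1 µM Aβ alone, and the Control group (2 libraries) was naive. Both treatments started at DIV7 and lasted 5 days. DFMO (difluoromethylornithine) irreversibly blocks ornithine decarboxylase, the enzyme that makes putrescine, the first polyamine. All 5 libraries were of polyadenylated RNA, so every value below is a transcript level, not a protein level or an enzyme activity.

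These proteases share a catalytic zinc ion and are mostly made as inactive precursors, which proprotein convertases such as furin or other proteases then cut. Secreted and membrane-type MMPs degrade collagens and other matrix proteins, ADAMs shed the extracellular parts of membrane proteins, and several ADAMTS enzymes cleave the chondroitin sulfate proteoglycans that make up much of the brain's matrix. TIMPs bind the active site, so the balance of enzyme and inhibitor sets how much proteolysis takes place. In brain, astrocytes are a source of both, and several ADAMs can cut the amyloid precursor protein.

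Depth set what could be seen. The Aβ+DFMO library had 4825677 reads, the Aβ libraries had 46886111 and 105544237, and the Control libraries had 49020833 and 49676004, so the others were 9.72 to 21.9 times deeper. Per gene only the authors' group means were available here, without the libraries behind them, and all levels below are these normalized means. In the Aβ+DFMO column the low values moved in steps of 7.45 units, taken as the worth of 1 read. On that scale 15 of the 48 members rested on fewer than 10 estimated reads in Aβ+DFMO, and 30 had a mean over the 3 groups of at least 200 units. Whether a group's libraries are of separate cultures is not stated in the labels, so the authors' p-values measure only a spread between libraries that may be technical. The authors' model covers Aβ+DFMO with a single library, which it takes to vary like the other groups. Errors are given as the standard error implied by the deposited log2 ratio and p-value (implied SE). Both tested comparisons share the Aβ libraries, so a high Aβ mean by itself raises one ratio and lowers the other.

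Astrocyte markers were high in all groups, and markers of other cells were present too. Summed over 8 astrocyte markers (Gfap, Aqp4 and Slc1a3 among them), the authors' deposited table gave 120177 in Aβ+DFMO, 152671 in Aβ and 153129 in Control. Over 10 markers of the oligodendrocyte lineage the sums were 25458 in Aβ+DFMO, 46413 in Aβ and 47032 in Control, and over 10 microglia and macrophage markers 14295 in Aβ+DFMO, 16398 in Aβ and 23232 in Control. Over 3 mural cell markers the sums were 81714 in Aβ+DFMO, 67194 in Aβ and 66229 in Control, and most of each was Acta2 (81013 in Aβ+DFMO, 66644 in Aβ and 65706 in Control), smooth muscle actin. No marker measured for these 4 lists had a mean of 0 in any group. By the authors' deposited table, 3 of 8 astrocyte markers, 8 of 10 oligodendrocyte markers, 1 of 10 microglia markers (Trem2), 1 of 5 neuronal markers (Tubb3) and 1 of 4 ependymal markers (Foxj1) were lower in Aβ+DFMO than in Aβ (adjusted p under 0.05). In that comparison 2 of 3 mural cell markers (Acta2 and Myh11) were higher, and none of 4 endothelial or 6 fibroblast and meningeal markers passed in either direction. After correction for the GC content of the transcript, described below, 3 of 8 astrocyte and 4 of 10 oligodendrocyte markers were lower past that threshold. Past it on the higher side were 2 of 3 mural markers and 1 of 6 fibroblast and meningeal markers (Col1a2). No microglia, neuronal, ependymal or endothelial marker passed. Against Control, 4 of 10 microglia markers (Csf1r, P2ry12, Tmem119 and Fcrls) were lower in Aβ and no other marker passed. In such bulk cultures fewer cells of a type and less RNA per cell cannot be told apart, and the part these shifts have in the results below was not tested.

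The highest transcript levels belonged to a pair of inhibitors. Per kilobase of exon, Timp2, a soluble inhibitor that also helps activate pro-MMP2 at the cell surface, stood first in all 3 groups (7802 units per kb in Aβ+DFMO, 8599 in Aβ and 8429 in Control). Timp3, which binds to the matrix and inhibits several ADAMs as well as MMPs, came next with 4883 units per kb in Aβ+DFMO, 4078 in Aβ and 4091 in Control. Adam9, a widely expressed sheddase, was the third with 3816 units per kb in Aβ+DFMO, 2696 in Aβ and 2762 in Control. Then followed Adamts1 (a proteoglycan-cleaving enzyme) and Mmp2 (gelatinase A), at 788 and 566 units per kb in Control. Ranks 1 to 5 were held by these genes in every group, and Timp2 with Timp3 made up 59.2% of the members' summed normalized signal (not per length) in Aβ+DFMO, 58.0% in Aβ and 58.1% in Control. All 48 members together held 0.391% of the summed signal in Aβ+DFMO, 0.389% in Aβ and 0.374% in Control.

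Below rank 5 the order differed between groups. Mmp15, a membrane-type MMP, ranked 11 in Aβ+DFMO (240.3 units per kb), 6 in Aβ (531) and 6 in Control (555). Adam8, a sheddase best known from myeloid cells, ranked 17 in Aβ+DFMO (125 units per kb), 8 in Aβ (446) and 11 in Control (333). Mmp14 (the main activator of pro-MMP2) and Adam17 (the enzyme that releases TNF and ligands of the EGF receptor) held ranks 6 and 7 in Aβ+DFMO. The lowest members were Adam4, Mmp25, Adam3 and Adam21 in Control, each under 2 units per kb. The means carry no spread over libraries, so whether neighbours in this order differ was not tested.

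**Figure D1:**
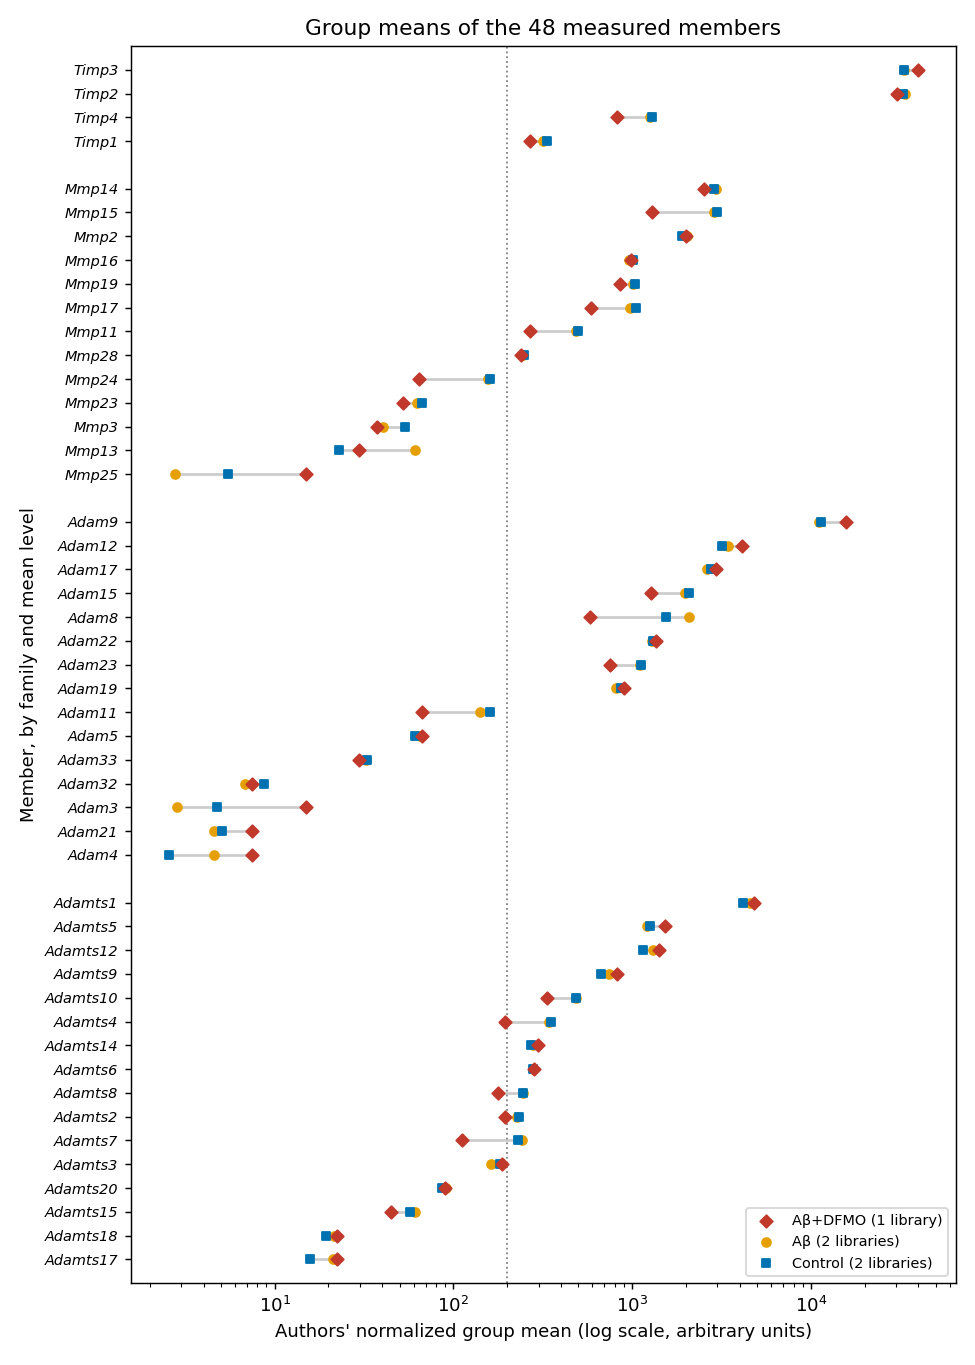
Authors' normalized group mean (log axis, arbitrary units) of each of the 48 members, by family and then by mean level; red diamonds are Aβ+DFMO (1 library), orange circles Aβ (2 libraries) and blue squares Control (2 libraries). The dotted line marks a mean of 200 units, and for most members above it the Aβ and Control symbols lie close together, with Adam8 set apart at 2070 and 1547 units.

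With Aβ alone, the means of most members lay close to those of Control. Only Adam8 passed an adjusted p of 0.05 in the authors' deposited table: it had a mean of 2070.3 in Aβ against 1547 in Control, a log2 ratio of 0.42 ± 0.11 (implied SE; DESeq2 adjusted p = 0.0357). Of all genes tested there, 0.287% were called in this comparison (54 of 18783), 0.112% higher and 0.176% lower in Aβ, so the members' share of 2.08% (1 of 48) rests on a single gene. Correcting for GC content (a smooth trend of the log2 ratio on it, subtracted here) gave Adam8 a log2 ratio of 0.41 and an adjusted p of 0.0507, just short of the threshold. Among the microglia and macrophage markers, whose part in this result was not tested, 8 of 10 had a log2 ratio below 0, 4 of them past the threshold. Trem2 and Tyrobp had log2 ratios of 0.15 and 0.19 in the authors' deposited table, neither past the threshold.

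The other well-measured members stayed within a narrow band. Over the 30 members with a mean of at least 200 the log2 ratios of Aβ to Control ran between -0.10 (Mmp17) and the 0.42 of Adam8, and the median over all 48 members was -0.02, beside 0.00 over all genes. After Adam8 the highest of the 30 were Adamts12 at 0.18 ± 0.11, Adamts9 at 0.14 ± 0.14, Adamts1 at 0.12 ± 0.08 and Adam12 at 0.12 ± 0.09 in the authors' deposited table. Of the 16 Adamts members 11 had a log2 ratio above 0, beside 9597 of all 18783 genes. Their median was 0.06, beside 0.00 over all genes, and none passed the threshold. Only 10 of the 16 had a mean of at least 200. The lowest after Mmp17 were Adam19 (-0.08 ± 0.13), Mmp16 (-0.08 ± 0.13), Adam17 (-0.08 ± 0.09) and Timp1 (-0.08 ± 0.21) in the authors' deposited table. Mmp13, a collagenase, was the other member with an unadjusted p under 0.05: its means were 60.7 in Aβ and 23.0 in Control, a log2 ratio of 1.40 ± 0.52 that did not hold after adjustment (unadjusted p = 0.00694, DESeq2 adjusted p = 0.901 in the authors' deposited table). Mmp13 had 29.8 units in Aβ+DFMO, which is about 4 reads, so its level there could not be resolved at this depth.

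Adding DFMO to Aβ went with more and larger differences. Adam8, Mmp15, Mmp17, Adam15 and Timp4 were lower in Aβ+DFMO than in Aβ, and Adam9 and Timp3 were higher, all past the 0.05 threshold on the adjusted p of the authors' deposited table. These 7 of 48 members (14.6%) stand beside 9.18% of all genes (1724 of 18783). By direction in the authors' deposited table, 2 members (4.17%) were higher, beside 4.0% of all genes, and 5 (10.4%) were lower, beside 5.18%. The median log2 ratio was -0.03 over the members and 0.01 over all genes. At an unadjusted p under 0.05 the authors' deposited table had 13 of the 48 members and 3931 of all genes.

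**Figure D2:**
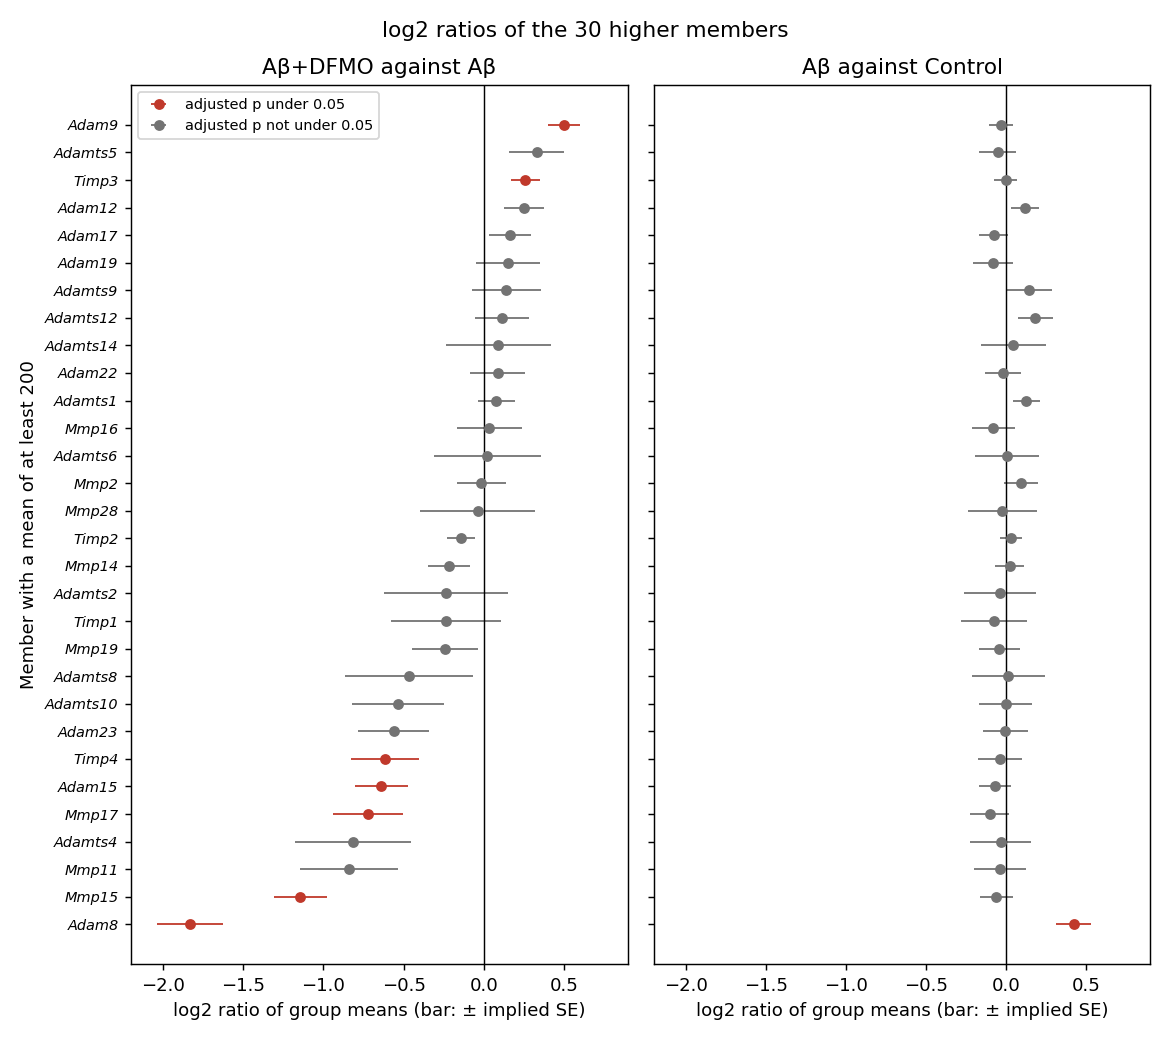
log2 ratio of group means with its implied standard error for the 30 members with a mean of at least 200, for Aβ+DFMO against Aβ (left) and Aβ against Control (right); red marks members past the threshold (adjusted p 0.05) of the authors' deposited table. On the left the points spread between -1.83 (Adam8) and 0.50 (Adam9), and on the right all but Adam8 at 0.42 lie between -0.10 and 0.18.

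Across all genes, the ratio of Aβ+DFMO to Aβ went down as transcript GC content went up, and this bears on most of the calls. Over 11617 genes with a mean of at least 200, Spearman's rho between GC content and log2 ratio was -0.71 for Aβ+DFMO against Aβ and 0.12 for Aβ against Control, given as a description because genes of one library share its preparation and depth. In 10 bands of equal size by GC content, the lowest band had a median log2 ratio of 0.35 for Aβ+DFMO against Aβ and the highest band -0.52. Among the 30 members with a mean of at least 200 the same rho was -0.59. Each call was therefore also recomputed here with a smooth trend on GC content subtracted (GC correction). Of all genes 1.54% then passed (284 of 18459), 0.802% higher and 0.737% lower, and of the members 3 of 48 (6.25%) did: Adam8 and Mmp15 lower, Adam9 higher. The GC trend, the single shallow library and the treatment cannot be told apart in this design.

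**Figure D3:**
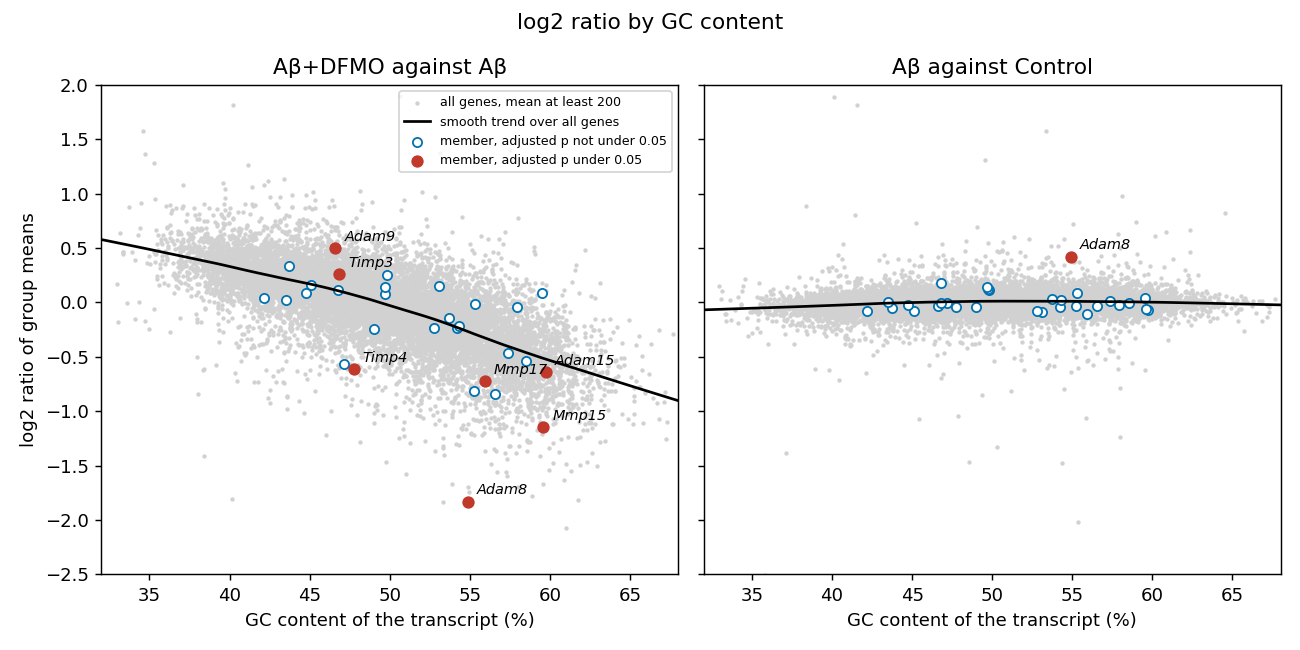
log2 ratio of group means against the GC content of the transcript for Aβ+DFMO against Aβ (left) and Aβ against Control (right); grey points are all genes with a mean of at least 200, the line is their smooth trend, and circles are members, filled red where they passed that threshold in the authors' deposited table. The trend on the left slopes down (rho -0.71) and is nearly level on the right (rho 0.12). Adam8, Mmp15, Timp4 and the uncalled Adam23 lie well below the left line and Adam9 above it. On the left 14 genes and on the right 11 fall outside the axes.

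Among the ADAMs, Adam8 had the largest difference of any member with a mean of at least 200. Adam8 (chromosome 7, 139978932-139992562, minus strand, GRCm38) had 581 in Aβ+DFMO, 2070.3 in Aβ and 1547 in Control in the authors' deposited table. The Aβ+DFMO mean was 0.281 of the Aβ mean, a log2 ratio of -1.83 ± 0.21 (DESeq2 adjusted p = 1.82e-15 in the authors' deposited table). It also lay below Control, with a log2 ratio of -1.41 that was not tested. After GC correction the ratio to Aβ was -1.56 (adjusted p = 9.00e-11). Beside it, Trem2 fell by 0.80 on the log2 scale in the authors' deposited table (log2 ratio -0.39, adjusted p = 0.599 after GC correction). The other 9 microglia and macrophage markers did not pass in this comparison, with log2 ratios between -0.53 (Csf1r) and 0.65 (P2ry12). Of the 10 markers 9 were below 0 (7 after GC correction). As deposited only P2ry12, with about 17 estimated reads in Aβ+DFMO, was above 0. The part of these cells in the Adam8 difference was not tested.

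Adam9 moved the other way. Adam9 (chromosome 8, 24949611-25016927, minus strand), which has been described as able to cleave the amyloid precursor protein at its alpha site, had 15702 in Aβ+DFMO, 11096 in Aβ and 11367 in Control in the authors' deposited table. It rose in Aβ+DFMO against Aβ by a log2 ratio of 0.50 ± 0.10 (DESeq2 adjusted p = 2.61e-05 in the authors' deposited table), and after GC correction the ratio was 0.39 (adjusted p = 0.00761). The Aβ and Control means differed by less than the implied SE (-0.03 ± 0.08).

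Adam15, a widely expressed ADAM with an integrin-binding motif, was the other ADAM called. Adam15 (chromosome 3, 89338542-89349996, minus strand) had 1274 in Aβ+DFMO, 1983 in Aβ and 2081 in Control in the authors' deposited table, with a log2 ratio of -0.64 ± 0.16 for Aβ+DFMO against Aβ (DESeq2 adjusted p = 0.00309). Its transcript is among the most GC-rich of the members at 59.7%, and after GC correction the ratio was -0.12 (adjusted p = 0.970). In the annotation 20.6% of its exon bases overlap 4731419I09Rik on the opposite strand, and no source used here says whether the authors counted by strand.

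The remaining ADAMs were not called. According to the authors' deposited table Adam12, a sheddase of growth factor ligands, had 4106 in Aβ+DFMO, 3448 in Aβ and 3184 in Control, with a log2 ratio of 0.25 ± 0.12 for Aβ+DFMO against Aβ (DESeq2 adjusted p = 0.212). Adam17 had 2939 in Aβ+DFMO, 2626 in Aβ and 2771 in Control in the same table and a log2 ratio of 0.16 ± 0.13, which was -0.00396 after GC correction. Adam19, by the authors' deposited table, had 905 in Aβ+DFMO, 814 in Aβ and 863 in Control (0.15 ± 0.20, and 0.32 after GC correction), and on the opposite strand Gm16033 overlaps 8.25% and Gm16034 6.75% of its exon bases. Adam22 and Adam23, which have no active protease site and bind Lgi proteins at synapses, were named after their values were seen. Adam23 had 753 in Aβ+DFMO, 1112 in Aβ and 1117 in Control (log2 ratio -0.56 ± 0.22, DESeq2 adjusted p = 0.0911 in the authors' deposited table). After GC correction the Adam23 ratio was larger in size at -0.66 and still not past the threshold (adjusted p = 0.130). Adam22 had 1364 in Aβ+DFMO, 1284 in Aβ and 1301 in Control (0.09 ± 0.17, and -0.09 after GC correction).

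Of the 13 MMPs, 2 membrane-type enzymes (15.4%) were called, both lower in Aβ+DFMO, beside 5.18% of all genes called lower. Mmp15 (chromosome 8, 95352268-95375080, plus strand) had 1297 in Aβ+DFMO, 2868 in Aβ and 2996 in Control in the authors' deposited table, giving a log2 ratio of -1.15 ± 0.17 for Aβ+DFMO against Aβ (DESeq2 adjusted p = 1.97e-09). After GC correction its ratio was -0.63 (adjusted p = 0.0133). Mmp17, a membrane-type MMP held at the surface by a lipid anchor, lies on chromosome 5 at 129584169-129611099 (plus strand). It had 589 in Aβ+DFMO, 972 in Aβ and 1045 in Control in the authors' deposited table, giving a log2 ratio of -0.72 ± 0.22 (DESeq2 adjusted p = 0.0152). After GC correction the Mmp17 ratio was -0.40 (adjusted p = 0.628). Beside these falls, all 10 oligodendrocyte lineage markers had a log2 ratio below 0, as deposited and after GC correction. Of these, 8 were called lower as deposited and 4 after GC correction. Of 8 astrocyte markers 7 were below 0 (8 after GC correction), and of 3 mural markers 1 was in either version. The part of these cells was not tested.

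Sequences before the transcription start of Adam8, Mmp15 and Adam15 are shown because these are the lower members with the smallest adjusted p-values for Aβ+DFMO against Aβ; Adam9 and Mmp17 have no entry in the RefSeq promoter table. The runs are 250 bases upstream of the RefSeq start, GRCm38.p6, printed 5′ to 3′ along the gene's strand. The capitals mark matches to any of 4 motifs searched on both strands: AP-1 (TGANTCA), the GC box (GGGCGG), an ETS core (AGGAAG) and the TATA box (TATAAA).
Adam8 (chr7:139992563-139992812, minus strand): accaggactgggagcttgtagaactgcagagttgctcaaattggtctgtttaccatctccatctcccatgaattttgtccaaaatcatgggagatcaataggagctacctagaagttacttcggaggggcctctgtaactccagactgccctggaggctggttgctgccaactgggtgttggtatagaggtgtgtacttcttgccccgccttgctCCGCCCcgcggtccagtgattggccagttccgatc
Mmp15 (chr8:95352046-95352295, plus strand): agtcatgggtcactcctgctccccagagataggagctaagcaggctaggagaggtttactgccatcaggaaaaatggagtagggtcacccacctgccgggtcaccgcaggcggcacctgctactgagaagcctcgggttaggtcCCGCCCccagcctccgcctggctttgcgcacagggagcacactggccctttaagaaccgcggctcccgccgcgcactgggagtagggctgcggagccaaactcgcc
Adam15 (chr3:89350029-89350278, minus strand): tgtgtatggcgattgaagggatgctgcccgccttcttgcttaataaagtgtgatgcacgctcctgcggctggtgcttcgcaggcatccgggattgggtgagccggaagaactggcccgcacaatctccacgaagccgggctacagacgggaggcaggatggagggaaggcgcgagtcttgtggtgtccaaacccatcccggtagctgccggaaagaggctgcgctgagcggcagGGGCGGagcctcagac
Each of the 3 runs holds 1 GC box and no match to the other motifs. The GC content of the runs is 52.8% for Adam8, 63.6% for Mmp15 and 62.0% for Adam15. In the full 300-base windows of the table, which add 50 bases after the start, Adam15 has 5 GC boxes, some of them overlapping, and Timp3 has 2 GC boxes and 1 ETS match. A GC box occurs in 35.7% of all 32851 windows and in those of 21 of the 29 members with an entry, an AP-1 match in 7.81% and in 3 of 29, an ETS match in 35.4% and in 10 of 29, and a TATA box in 13.6% and in 3 of 29. The median GC content of the windows is 64.2% for the members and 52.7% for all. A match in this window is a letter match and not a binding site.

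Other MMPs were not called. The membrane-type enzymes Mmp14 and Mmp16 had log2 ratios of -0.22 ± 0.13 and 0.04 ± 0.20 for Aβ+DFMO against Aβ in the authors' deposited table, and both signs turned after GC correction (0.02 and -0.22). Mmp2 had 2012 in Aβ+DFMO, 2033 in Aβ and 1909 in Control by the authors' deposited table (-0.01 ± 0.15), and 0.28 after GC correction. Mmp11 (stromelysin-3, which furin activates inside the cell) had 270.0 in Aβ+DFMO, 483 in Aβ and 496 in Control, a log2 ratio of -0.84 ± 0.31 that missed the threshold (DESeq2 adjusted p = 0.0608 in the authors' deposited table). When p-values were adjusted only over genes with a mean of at least 200, Mmp11 became the eighth member called, and after GC correction its log2 ratio was -0.48 (adjusted p = 0.752). Mmp19 had 856 in Aβ+DFMO, 1013 in Aβ and 1043 in Control by the authors' deposited table (-0.24 ± 0.21). Mmp28 (epilysin) had 238 in Aβ+DFMO, 245 in Aβ and 249 in Control, also by the authors' deposited table (-0.04 ± 0.36, and 0.39 after GC correction). Mmp3 (stromelysin-1) and Mmp23 had fewer than 10 estimated reads in Aβ+DFMO, so that their ratios in the authors' deposited table of -0.12 ± 0.85 and -0.27 ± 0.73 were not informative at this depth. Over the 13 Mmp genes 11 log2 ratios were below 0 as deposited, beside 49.3% of all genes, and 8 were after GC correction. The median was -0.24 (-0.26 after GC correction). Of the 13, 5 rested on fewer than 10 estimated reads in Aβ+DFMO. The median GC content of the 13 was 55.3%, beside 49.5% for all genes.

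Of the 4 inhibitors, Timp3 was higher and Timp4 lower in Aβ+DFMO. Timp3 (chromosome 10, 86300372-86349506, plus strand) had 39765 in Aβ+DFMO, 33214 in Aβ and 33315 in Control in the authors' deposited table, giving a log2 ratio of 0.26 ± 0.09 for Aβ+DFMO against Aβ (DESeq2 adjusted p = 0.0469). Timp4 (chromosome 6, 115241892-115252205, minus strand) had 819.8 in Aβ+DFMO, 1257 in Aβ and 1291 in Control, a log2 ratio of -0.62 ± 0.21 (DESeq2 adjusted p = 0.0435 in the authors' deposited table). Neither passed once corrected for GC, with Timp3 at 0.15 (adjusted p = 0.685) and Timp4 at -0.69 (adjusted p = 0.0698). The Timp4 ratio was then larger in size than as deposited, and its p was adjusted among fewer calls. In the annotation 21.3% of the exon bases of Timp3 overlap Syn3 on the opposite strand, against 1.53% of those of Timp4 (Syn2). Timp2 had 30398 in Aβ+DFMO, 33501 in Aβ and 32839 in Control by the authors' deposited table (-0.14 ± 0.09, and 0.06 after GC correction). Timp1, the inhibitor that inflammatory signals induce in many tissues, had 268 in Aβ+DFMO, 316 in Aβ and 333 in Control by the authors' deposited table (-0.24 ± 0.34, and -0.08 after GC correction). Neither Timp1 nor Timp2 passed in either comparison in the authors' deposited table.

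**Figure D4:**
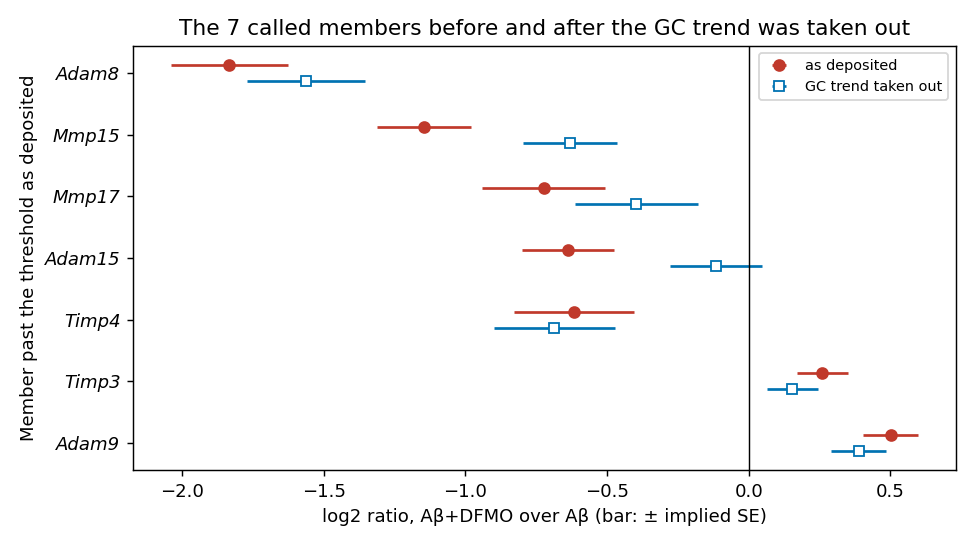
log2 ratio of Aβ+DFMO to Aβ for the 7 members past an adjusted p of 0.05 in the authors' deposited table, as deposited (red circles) and after GC correction (open blue squares); bars are the implied standard error. Adam8 (-1.83 and -1.56), Mmp15 (-1.15 and -0.63) and Adam9 (0.50 and 0.39) passed in both versions, while Adam15 lay near 0 (-0.12) when corrected.

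None of the 16 ADAMTS genes was called in the authors' deposited table in either comparison. Of all genes 9.18% were called for Aβ+DFMO against Aβ and 0.287% for Aβ against Control, so an absence among 16 genes says little about the family. An unadjusted p under 0.05 (DESeq2) was found for 2 of the 16 for Aβ+DFMO against Aβ, beside 3931 of all 18783 genes. For Aβ against Control none had one, beside 324 of all genes. Among the proteoglycan-cleaving enzymes, Adamts1 had 4814 in Aβ+DFMO, 4557 in Aβ and 4180.3 in Control by the authors' deposited table, with an Aβ+DFMO to Aβ log2 ratio of 0.08 ± 0.12. Adamts9 had 819 in Aβ+DFMO, 743 in Aβ and 672 in Control by the authors' deposited table (0.14 ± 0.22). Adamts5 had 1528 in Aβ+DFMO, 1215 in Aβ and 1259.8 in Control, with a log2 ratio of 0.33 ± 0.17 for Aβ+DFMO against Aβ (DESeq2 adjusted p = 0.245 in the authors' deposited table) and 0.12 after GC correction. Adamts4, which in mouse brain is made mainly by oligodendrocytes, had 194 in Aβ+DFMO, 341 in Aβ and 349.8 in Control by the authors' deposited table. Its log2 ratio of -0.82 ± 0.36 was the lowest of the 10 ADAMTS genes with a mean of at least 200 and missed the threshold (DESeq2 adjusted p = 0.148 in the authors' deposited table), and it was -0.53 after GC correction. The procollagen N-propeptidases Adamts2, Adamts3 and Adamts14 had log2 ratios of -0.23 ± 0.39, 0.19 ± 0.43 and 0.09 ± 0.33 in the authors' deposited table. After GC correction Adamts2 was at -0.0025, Adamts3 at 0.25 and Adamts14 at 0.60. In the remaining group Adamts12 had 1416 in Aβ+DFMO, 1307 in Aβ and 1152 in Control by the authors' deposited table (0.12 ± 0.17, and 0.01 after GC correction). Adamts10, which acts on fibrillin microfibrils, had 335 in Aβ+DFMO, 486 in Aβ and 487 in Control by the authors' deposited table (-0.53 ± 0.29, and -0.07 after GC correction). Adamts6 had 283 in Aβ+DFMO, 279 in Aβ and 278 in Control by the authors' deposited table (0.02 ± 0.33, and -0.19 after GC correction). Of the 16 log2 ratios 9 were above 0 and 7 below, beside 49.3% of all genes below 0.

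The 18 members with a mean under 200 gave little information. In Aβ+DFMO 15 of them rested on fewer than 10 estimated reads, and their log2 ratios against Aβ ran between -1.29 (Mmp24) and 2.43 (Mmp25) with no call in the authors' deposited table. Mmp25 and Adam3, the 2 highest, each rested on 2 estimated reads there. They are not further described.

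Because the Aβ+DFMO library was not tested against Control, that pair is given as ratios of means only. Beyond a log2 ratio of 0.5 in either direction there were 18 of 48 members (37.5%), beside 33.3% of all genes, with 5 members higher (10.4%, beside 15.3% of all genes) and 13 lower (27.1%, beside 18.0%). Of those, 9 had a mean of at least 200, all of them lower: Adam8 (-1.41), Mmp15 (-1.21), Mmp11 (-0.88), Adamts4 (-0.85), Mmp17 (-0.83), Adam15 (-0.71), Timp4 (-0.65), Adam23 (-0.57) and Adamts10 (-0.54). The 5 higher members all had a mean under 200. Adam9 stood at 0.47 and Timp3 at 0.26. All ratios to Control given here are without GC correction, so the GC trend seen against Aβ was not taken out of them. Against Aβ, GC correction left Adam15 at -0.12 and Adamts10 at -0.07, but Timp4 at -0.69 and Adam23 at -0.66. The part of the GC trend in the lower ratios to Control was not tested.

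Among regulators of these proteases, a few were called in Aβ+DFMO against Aβ and none in Aβ against Control. Of 46 listed activators, inhibitors and partners 42 were measured. For Aβ against Control 3 of the 42 had an unadjusted p under 0.05 (DESeq2), beside 324 of all 18783 genes (1.72%). None was called in that comparison in the authors' deposited table, beside 0.287% of all genes. Plau (urokinase, which generates plasmin) came closest, at 1001 in Aβ against 720.5 in Control (log2 ratio 0.47, DESeq2 adjusted p = 0.0724 in the authors' deposited table). For Aβ+DFMO against Aβ 2 were called higher and 4 lower, 14.3% of the list beside 9.18% of all genes. Thbs1 (thrombospondin-1, which binds MMPs and ADAMTS enzymes) had a log2 ratio of 0.50 and Ets1, a transcription factor of several Mmp genes, 0.57 in the authors' deposited table. Cst3 (cystatin C, a cysteine protease inhibitor, -0.52), Frmd8 (which stabilises the iRhom partners of Adam17, -0.49), Furin (-0.56) and Adamtsl4 (-0.86) fell in the authors' deposited table. After GC correction only Thbs1 of these 6 passed (0.52). Ets1 was then at 0.49 and Adamtsl4 at -0.33, and Cst3 (-0.13), Frmd8 (-0.15) and Furin (-0.11) lay nearer to 0, while Pcsk6, a furin relative, became a call at 0.63 (named after its value was seen). The median log2 ratio over the 42 was -0.28, beside 0.01 over all genes, and -0.12 beside 0.02 after GC correction; the median GC content of the list was 53.8%, beside 49.5% for all genes.

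Substrates were described in the same way. Of 46 listed matrix and shed proteins 42 were measured, and none was called for Aβ against Control, beside 0.287% of all genes. At an unadjusted p under 0.05 (DESeq2) there were 5 of the 42, beside 324 of all 18783 genes (1.72%). The median log2 ratio of the list was 0.07, beside 0.00 over all genes. The smallest p there belonged to Col4a2 and Col4a1, the basement membrane collagens, with log2 ratios of 0.22 and 0.19 in the authors' deposited table. For Aβ+DFMO against Aβ 2 were called higher, Nid1 (0.44, a basement membrane linker) and Hbegf (0.44, an EGF receptor ligand shed by ADAMs). Another 7 were called lower, in all 21.4% of the list beside 9.18% of all genes. Among the falls in the authors' deposited table were the brain proteoglycans Ncan (-0.78, named after its value was seen), Bcan (-0.77), Cspg4 (-1.17) and Cspg5 (-0.52), the matrix glycoprotein Tnr (-0.89), the laminin receptor Dag1 (-0.31) and the EGF receptor ligand Tgfa (-1.22). Cspg4 is also in the oligodendrocyte lineage list. After GC correction, Tnr (-0.96), Tgfa (-1.16), Nid1 (0.48) and Hbegf (0.47) passed, whereas Ncan (-0.50), Bcan (-0.20), Cspg4 (-0.67), Cspg5 (-0.43) and Dag1 (-0.15) did not. Lamb1 (0.63), Col4a1 (0.43), Col4a2 (0.43) and Col1a2 (0.44), a laminin chain and 3 collagen chains named after their values were seen, passed only after that correction. In all, 8 of the 42 passed after GC correction, 6 higher and 2 lower, beside 1.54% of all genes. The median log2 ratio of the list was -0.05 as deposited and 0.04 after GC correction.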

How the data were processed

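RNA-seq libraries of primary mouse astrocytes were compared as Aβ+DFMO (1 library), Aβ (2) and Control (2), grouped by the labels. Per the submitters' processing notes, STAR 2.7.3a, Partek, DESeq2 and FastQC were used, with mm10 and GRCm39 both named and no role given for either. Per the file headers, the authors deposited group means (least-squares means, used here as a normalized signal), a linear ratio, a log2 ratio, a p-value and an adjusted p-value for 18783 genes. The authors also deposited, per the file headers, read totals for each library with the percent lying in exons, 84.4% to 85.2%. No counts per library and gene were available here, so the authors' tests were used and nothing was refitted; the authors' adjusted p-values were checked to be Benjamini-Hochberg values.

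A gene was called at an adjusted p under 0.05. The implied SE is the size of the log2 ratio divided by the normal deviate of its p. Transcript GC content, exon length, position and exon overlaps came from GENCODE vM21 (GRCm38). A GC trend (lowess, fraction 0.3, over genes with a mean of at least 200) was subtracted, p-values recomputed with the implied SE and adjusted over the 18459 genes with a GC value. The steps were run on simulated data with errors drawn from the implied SE and a linear GC trend added. Such data check the steps only and cannot show whether the implied SE holds for a single shallow library. Of the 7242 genes under 27 reads' worth in the Aβ+DFMO column, 80.2% were whole within 0.05 of a read. Python 3.11.15 with pandas 2.3.3, numpy 2.4.6, scipy 1.17.1, statsmodels 0.14.6 and matplotlib 3.10.9 was used.

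Members and lists were chosen with earlier results of these data known. Members past a threshold, all TIMPs, the 3 highest of each role class, the 5 largest differences each way in each comparison at a mean of at least 200, and the 3 smallest p-values in each comparison are named; of the regulator and substrate lists, up to 8 called genes, or else the 2 smallest p-values. Genes of these families left out by rule are not reported here. Alternatives were other thresholds, filters, scaling, pseudocount and GC correction.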

Additional observations from a re-analysis of the deposited data

How the results depend on the processing

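For Aβ against Control the members' count was 1; it was 0 at an adjusted p under 0.01 (authors' DESeq2 p-values, 2 members at an unadjusted p under 0.05), and 0 with the GC trend taken out by a smooth curve or by 20 bins (the bins were chosen after seeing the data). For Aβ+DFMO against Aβ the count was 7; it was 4 at an adjusted p under 0.01, 3 with either GC correction, 8 when adjusted only over genes with a mean of at least 200 or with at least 10 estimated reads (both adding Mmp11, the read minimum chosen after seeing the data), and 9 at an adjusted p under 0.1. The 3 members left by the GC corrections were Adam8, Adam9 and Mmp15 in both. Over all genes 1724 calls became 887 at 0.01, 284 with the smooth GC trend and 291 with 20 bins. For Aβ+DFMO against Control, 18 members beyond 0.5 became 9 among those with a mean of at least 200, both counts without GC correction.

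Among the members named by rule, signs of log2 ratios for Aβ+DFMO against Aβ turned under the GC correction (smooth trend, then 20 bins) for Adamts6 (-0.19, -0.21), Mmp14 (0.0196, 0.0469), Mmp16 (-0.22, -0.20), Mmp2 (0.28, 0.25), Mmp23 (0.19, 0.20), Mmp28 (0.39, 0.43) and Timp2 (0.0625, 0.0678), for Adam17 under the smooth trend only (-0.00396) and for Adamts12 under 20 bins only (-0.0105); among the other members they turned under the smooth trend for Adam22 (-0.09), Adam5 (-0.18), Adam32 (-0.07) and Adam33 (0.38), where 20 bins were not run. None of these was called in any version run. Recentring changed no call among the members and no sign among those named by rule. Over all genes it gave 1756 calls for Aβ+DFMO against Aβ in place of 1724. A pseudocount of 10 turned no sign among the named members, and no p-value was computed with it. No paired analysis was possible because the gene values used are group means, and leaving out single libraries was not run for the same reason. The cause of the GC trend was not tested, and at the depth of the Aβ+DFMO library a member not called is not shown to be unchanged.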
